A study of Mus musculus with 25 samples.

Results

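The genes described here are the small nucleolar RNAs (snoRNAs) that a mouse whole-transcript array measures with probe sets of their own. They were chosen by symbol alone, as every gene with a probe set of a single symbol that starts with Snora or Snord, which gave 51 of the 19938 named genes. Of these, 31 are box C/D snoRNAs (Snord) and 20 are box H/ACA snoRNAs (Snora). A filter on dim genes, which removed the lowest 20% of genes by mean signal (under 3.33 log2), left 44 of the 51 for testing, 27 of box C/D and 17 of box H/ACA. The 7 below it were Snora16a, Snora2b, Snora41, Snord35a, Snord37, Snord42b and Snord58b. Snora41 lay just under the limit, with a mean of 3.32 log2, and Snora69 just above it, with 3.40.

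snoRNAs are short non-coding RNAs of the nucleolus that guide chemical changes on ribosomal RNA by base pairing. Box C/D snoRNAs bind the proteins Fbl, Nop56, Nop58 and Snu13 and direct ribose methylation, and box H/ACA snoRNAs bind Dkc1, Nop10, Nhp2 and Gar1 and direct the change of uridine to pseudouridine. Most lie in introns of host genes and are released as the intron is degraded, and many hosts are ribosomal protein genes or non-coding genes such as Gas5. A few are also needed for cleavage steps in the processing of the ribosomal RNA precursor, among them U8 (Snord118), U14 (Snord14 genes), U22 (Snord22) and U17 (Snora73 genes). In liver, ribosome production supports growth after birth and the synthesis of secreted proteins.

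The study used liver of mice of the FVB;129 strain label that carry Cre recombinase driven by the promoter of albumin, a gene of hepatocytes, with loxP sites in Rb1 and/or Trp53. The 6 groups were wild type untreated (WT untreated, n = 3), wild type after diethylnitrosamine (WT DEN, n = 5), Trp53 deleted after DEN (p53KO DEN, n = 5), Rb1 deleted after DEN (RbKO DEN, n = 4), and both genes deleted in this way without and with DEN (DKO untreated, n = 3, and DKO DEN, n = 5). DEN is a carcinogen that hepatocytes convert to an agent that alkylates DNA. It was injected once at 20 mg/kg into mice aged 14 days, with 24 h until collection, and the untreated arrays are labelled as given none while the series text names saline. Whole liver was measured, so cells that lack albumin keep both genes, and fewer cells of a type cannot be told apart from less RNA per cell. The labels do not say that the samples of a group are separate animals, and each p-value speaks only of the spread among the samples measured, which may be technical.

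The arrays fall into 3 sets by the endings of their names, of 16, 4 and 5 arrays. Set 1 held arrays of every group (2 of WT untreated, 3 of DKO untreated, 3 of WT DEN, 2 of p53KO DEN, 3 of RbKO DEN and 3 of DKO DEN). Set 2 held 1 WT untreated, 2 WT DEN and 1 RbKO DEN array, and set 3 held 3 p53KO DEN and 2 DKO DEN arrays. The labels do not say what the name endings stand for. Group differences below come from a limma fit over all 25 arrays with the set as a term, and "called" means an adjusted p under 0.05 (Benjamini-Hochberg, all 15951 tested genes). The difference within set 1 alone is given beside it. Signals are log2 values made by the authors with RMA, and a level is compared only within a probe set.

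The hepatocyte markers Alb, Apoa1, Ttr, Cps1, Fgb and Apob together had a mean of 12.0 to 12.4 log2 over the arrays, and the neuron markers 3.64 to 4.12. The Rb1 probe set, which the labels do not place within or outside the deleted part, had a mean of 5.75 ± 0.41 (SD, n = 5) in WT DEN, 5.82 ± 0.32 (n = 4) in RbKO DEN, 5.49 ± 0.24 (n = 5) in DKO DEN, 5.47 ± 0.25 (n = 3) in WT untreated and 4.93 ± 0.15 (n = 3) in DKO untreated, and passed the test in none of the group comparisons over all arrays. In set 1 alone it was lower in DKO than in WT after DEN (-0.49, SE 0.12, limma adjusted p = 0.0136) and not called between RbKO and WT (-0.25), while in set 2 it was 0.78 higher in the RbKO array than in WT. In set 1 it was also higher after DEN, in WT by 0.59 (SE 0.14, adjusted p = 0.00807) and in DKO by 0.49 (SE 0.12, adjusted p = 0.00629). It therefore does not check the Rb1 labels. Trp53 was not analysed here.

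The RefSeq gene table places 50 of the 51 snoRNAs inside another gene, 37 of them in a protein-coding gene and 13 in a non-coding one. Snord118 was the exception. RefSeq lengths ran from 45 to 205 nucleotides. The recovery of RNA this short by the column extraction named in the labels was not measured, and a probe set inside an intron cannot tell the finished snoRNA from unspliced host RNA. Transcripts of snoRNA hosts often start with a C followed by a run of pyrimidines. The starts of hosts of the snoRNAs named most below are shown for that reason, from the RefSeq promoter table (GRCm38.p6). The first 5 bases of the listed transcript start are in capitals and the 20 bases before it come first. The hosts of Snord104, Snord52 and Snord33 were added after the values were seen.
Ipo7 (host of Snora23, chr7:110018295-110018334, plus strand): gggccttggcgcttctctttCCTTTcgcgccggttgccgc
Gas5 (host of Snord47, chr1:161035146-161035185, plus strand): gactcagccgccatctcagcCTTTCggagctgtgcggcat
Tpt1 (host of Snora31, chr14:75845236-75845275, plus strand): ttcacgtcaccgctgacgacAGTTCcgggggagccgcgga
Ncl (host of Snord82 and Snora75, chr1:86359436-86359475, minus strand): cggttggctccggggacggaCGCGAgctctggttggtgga
Gm36220 (host of Snord104, chr11:106500895-106500934, plus strand): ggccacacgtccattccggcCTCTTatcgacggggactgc
1110038B12Rik (host of Snord52, chr17:34952449-34952488, minus strand): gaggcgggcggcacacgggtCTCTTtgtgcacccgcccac
Rpl13a (host of Snord33, chr7:45128726-45128765, minus strand): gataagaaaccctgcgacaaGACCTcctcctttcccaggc
Rps12 (host of Snora33, chr10:23787190-23787229, minus strand): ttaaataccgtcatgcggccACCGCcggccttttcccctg
Snhg12 (host of Snora44, chr4:132308658-132308697, plus strand): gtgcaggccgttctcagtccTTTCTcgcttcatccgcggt
Rbmx (host of Snord61, chrX:57393017-57393056, minus strand): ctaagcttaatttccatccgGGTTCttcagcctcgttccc
Ipo7, Gas5, Gm36220 and 1110038B12Rik start here with C and then 4 bases that are each C or T, read on the transcript's strand, while Tpt1, Ncl, Rpl13a, Rps12, Snhg12 and Rbmx do not. Gas5 and 1110038B12Rik each have another listed start without this run. The rule reads only the exact listed first base, so a start listed a few bases away could change the label and the share below. For Snhg12 the bases just before the capitals are also C. Of the 40 host genes 30 were in the table, and 6 of them (20%) had such a start, against 813 of 27025 genes (3.01%).

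The largest differences among these probe sets lay between array sets. With group held constant, 25 of the 44 tested snoRNAs were called between set 2 and set 1, 18 higher and 7 lower in set 2, where 34.8% of all tested genes were called. When each array was first centred on its median the split was 14 higher and 9 lower, and after a further quantile normalization 15 higher and 8 lower. Between set 3 and set 1, 13 were called, 10 higher and 3 lower, where 11.4% of all tested genes were called. The signals of set 2 and set 1 did not overlap in 10 of the 44 (22.7%), against 9.03% of all tested genes, and those of set 3 and set 1 in 7 (15.9%), against 2.81%. The median size of the difference between set 2 and set 1 was 0.59 log2 over the snoRNAs and 0.23 over all genes tested.

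Snord52, a box C/D snoRNA of 59 nucleotides inside the non-coding gene 1110038B12Rik, differed most. Its signal over the 16 arrays of set 1 ran from 2.62 to 3.49 with a median of 3.22, and the 5 arrays of set 3 lay between 2.91 and 4.13. In set 2 it was 6.76 in WT untreated, 8.80 and 8.20 in WT DEN, and 5.84 in RbKO DEN. Every array of set 2 was above every other array, by 4.16 log2 against set 1 (SE 0.29, limma adjusted p = 1.51e-11). Its means in set 1 (3.13) and set 3 (3.27) lay under the filter limit of 3.33. It passed the filter only through set 2 (mean 7.40), the set tested here, which limits this test. Its differences within set 1 given below rest on dim signal.

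Snord33, hosted by the ribosomal protein gene Rpl13a, behaved alike. Set 1 spanned 3.46 to 4.71 with a median of 4.06, while the set 2 arrays were at 7.11 in WT untreated, 9.42 and 9.04 in WT DEN, and 6.03 in RbKO DEN. The difference between set 2 and set 1 was 3.56 (SE 0.30, limma adjusted p = 3.73e-10). Snord35a of the same host was among the dim genes and was not tested, with 2.39 to 2.99 in set 1 and, in set 2, 2.96 in WT untreated, 4.80 and 4.62 in WT DEN and 3.35 in RbKO DEN. Its WT untreated array of set 2 thus lay within the range of set 1, unlike that of Snord33. In mammalian cells the Rpl13a snoRNAs are known for a role in lipid-induced and oxidative stress. The other snoRNAs of this host have no probe set of a single symbol here.

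Snord104 went the other way. It lay between 10.53 and 11.21 in all 16 arrays of set 1 and between 10.19 and 10.53 in set 3. In set 2 it was 6.53 in WT untreated, 8.26 and 8.15 in WT DEN, and 6.02 in RbKO DEN, so that no set 2 array overlapped the others. The fitted difference was -3.63 (SE 0.22, limma adjusted p = 1.36e-12).

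**Figure D1:**
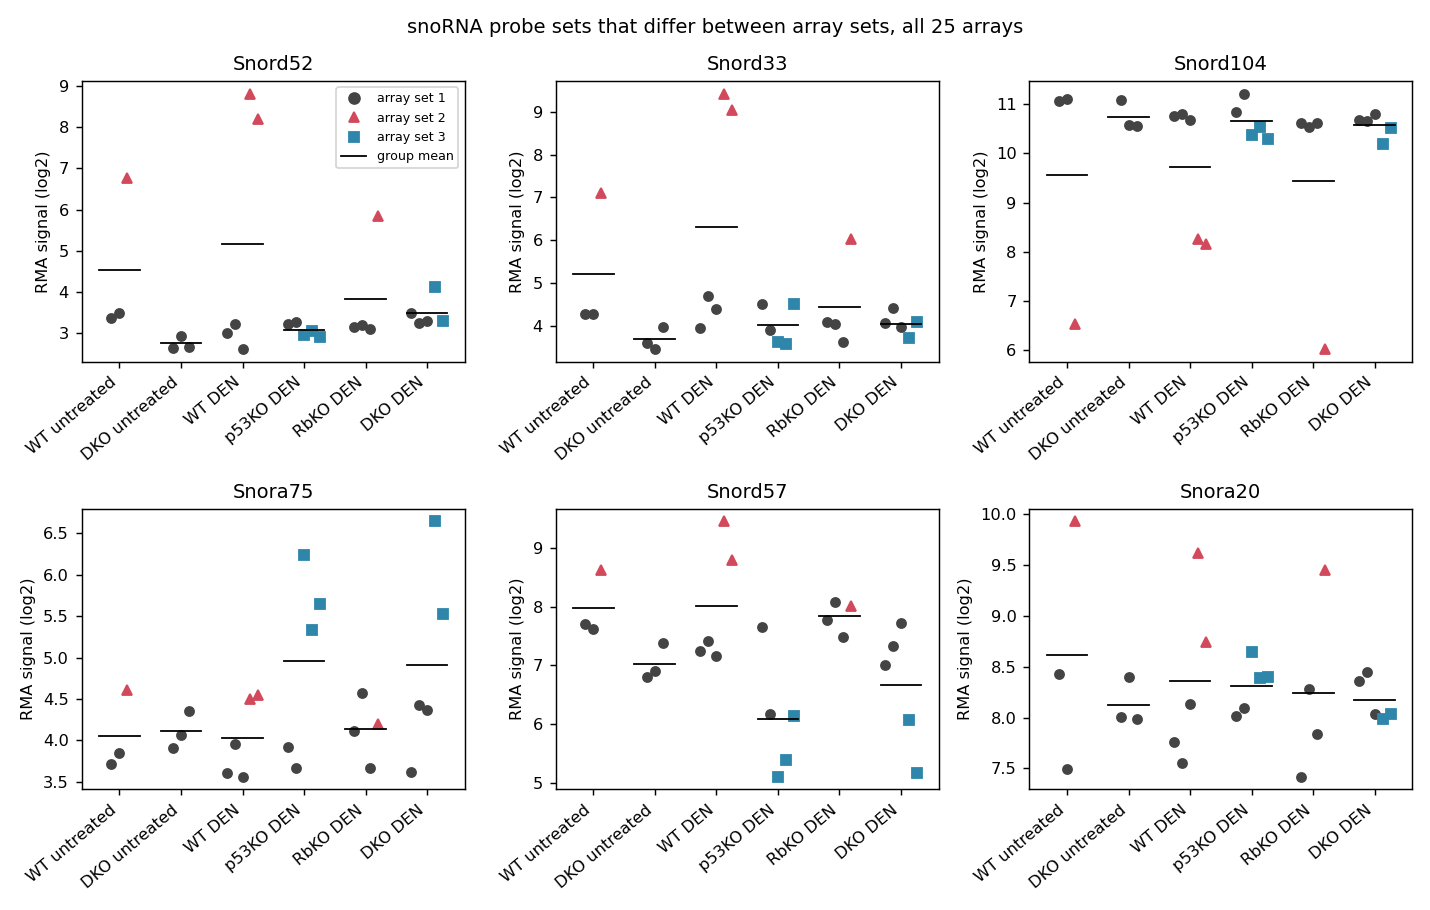
RMA signal (log2, vertical axis) of 6 snoRNA probe sets in all 25 arrays by group, with circles for set 1, triangles for set 2, squares for set 3 and a line at each group's mean over sets. Snord52, Snord33 and Snora20 were high and Snord104 low in the 4 arrays of set 2, while Snora75 was high and Snord57 low in the 5 arrays of set 3.

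Several box H/ACA snoRNAs were also higher in set 2. Snora23 (host Ipo7, an import receptor gene) differed by 1.65 (SE 0.22, limma adjusted p = 1.10e-06), Snora44 (host Snhg12) by 1.62 (SE 0.31) and Snora20 (host Tcp1, a chaperonin gene) by 1.59 (SE 0.19). Snora44 was high in only 2 of the 4 arrays of set 2, the WT DEN arrays at 8.22 and 7.85, with 5.75 in WT untreated and 4.78 in RbKO DEN. Among box C/D snoRNAs, Snord61 (host Rbmx) was higher by 1.54 (SE 0.26) and Snord14e (host Hspa8) by 1.53 (SE 0.24). Besides Snord104, those lower in set 2 were Snord118 by -1.55 (SE 0.38), Snord49b by -0.93, Snora31 by -0.90, Snora33 by -0.85, and the near-identical Snora73b and Snora73a, whose signals cannot be separated with certainty, by -0.80 and -0.78. Without the WT untreated array of set 2 the adjusted p was 0.0675 for Snord118, 0.115 for Snora73b and 0.0633 for Snord49b, and without the RbKO DEN array of set 2 it was 0.260 for Snord49b.

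In set 3, Snora75, hosted by the nucleolin gene Ncl, was higher. It measured 6.23, 5.34 and 5.64 in p53KO DEN and 6.64 and 5.53 in DKO DEN, all above the highest array of set 1 at 4.57, and the difference was 1.95 (SE 0.21, limma adjusted p = 4.08e-06). Snord16a (host Rpl4) followed with 1.47 (SE 0.20, adjusted p = 5.52e-05). Snord118 and Snord57 (host Nop56) were lower by -2.05 (SE 0.40, adjusted p = 0.00144) and -1.55 (SE 0.27, adjusted p = 0.000670).

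In both sets both classes had more called members higher than lower, while single members differed in direction. Snora31 was lower in set 2 (-0.90) and higher in set 3 (1.07), Snord57 was higher in set 2 (1.16) and lower in set 3 (-1.55), and Snora23 was higher in both (1.65 and 1.30). In set 2, box C/D counted 11 higher and 3 lower of 27 and box H/ACA 7 higher and 4 lower of 17. In set 3 the counts were 6 higher and 3 lower of 27, and 4 higher and 0 lower of 17. Of all genes called, 54.7% were lower in set 2 and 74.0% in set 3. One of the 6 is Snord73a, whose mean in set 1 (3.28) lay under the filter limit of 3.33. It passed the filter only through sets 2 and 3 (means 3.58 and 3.92), which limits its test. The median difference of set 3 from set 1 was 0.13 for box C/D and 0.31 for box H/ACA, beside -0.05 over all genes tested.

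**Figure D2:**
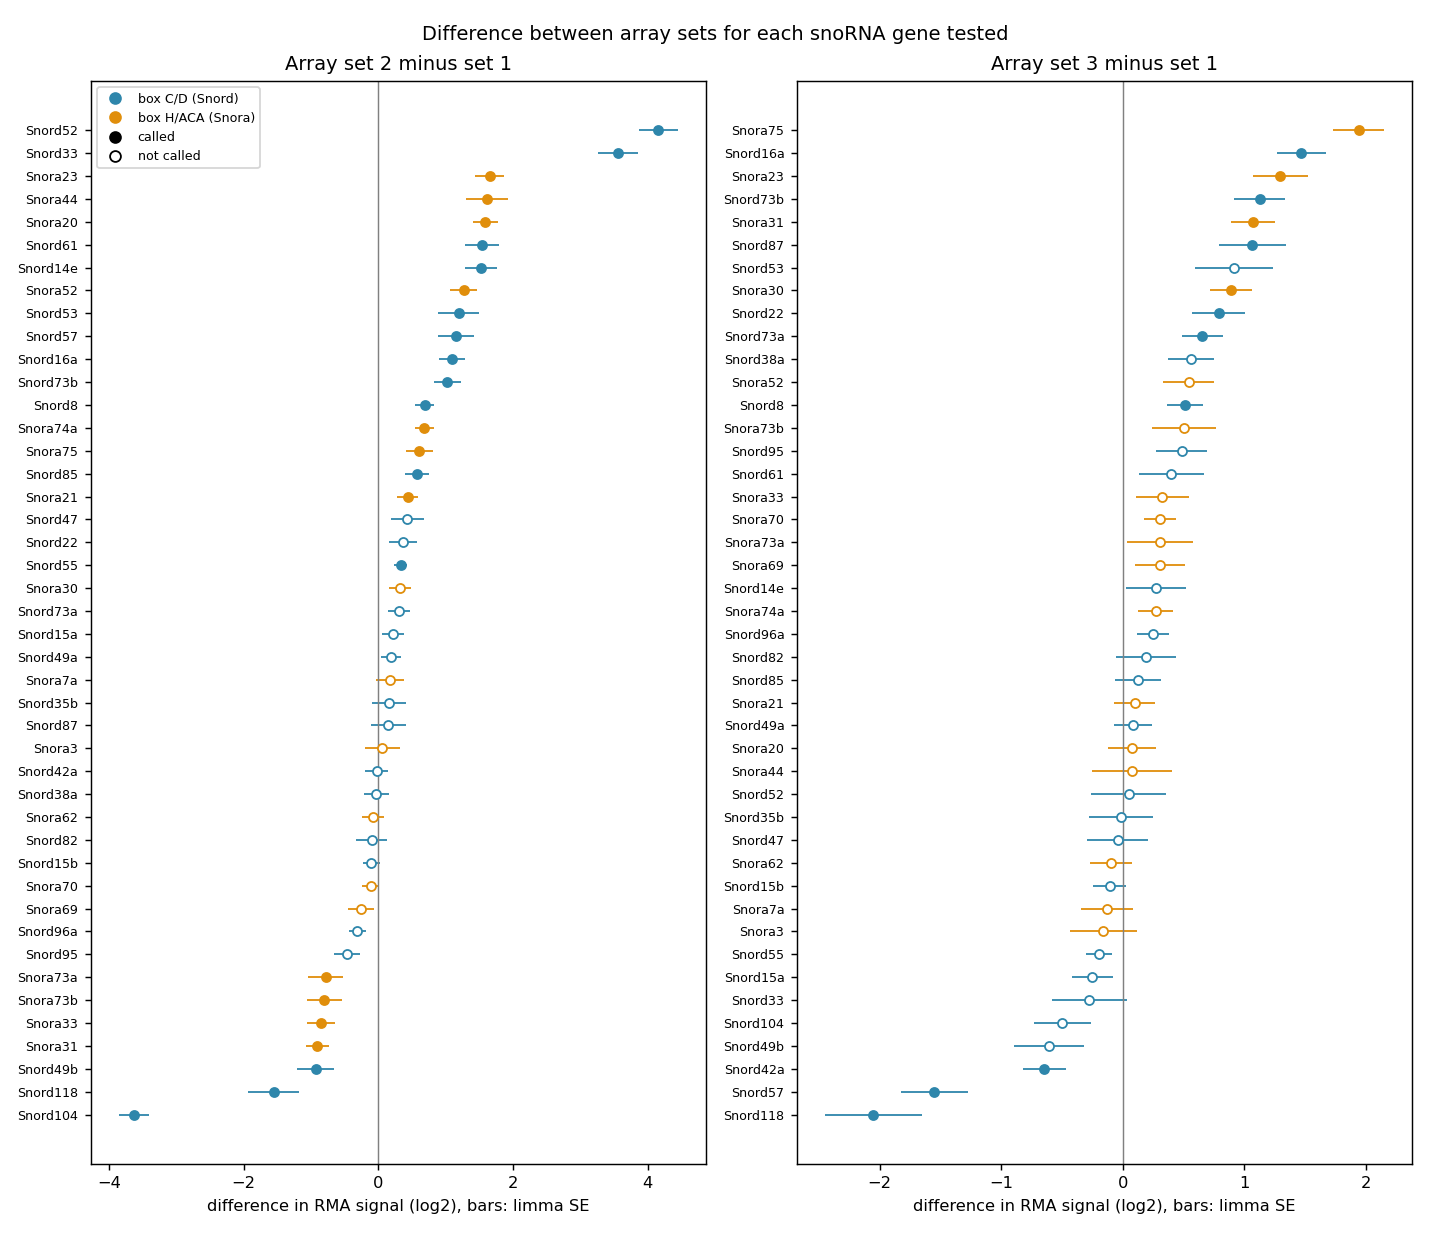
Difference in RMA signal (log2, horizontal axis) of each of the 44 tested snoRNAs between array sets, set 2 minus set 1 on the left and set 3 minus set 1 on the right, with bars for the limma SE and filled points for called genes. Snord52 and Snord33 at 4.16 and 3.56 and Snord104 at -3.63 stand apart in set 2, and Snora75 at 1.95 and Snord118 at -2.05 lie at the ends in set 3.

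Many of the genes whose products work with snoRNAs also differed between set 2 and set 1. All 4 box H/ACA protein genes were lower in set 2, Nhp2 by -1.73, Nop10 by -1.18, Gar1 by -0.87 and Dkc1 by -0.71. Of the 4 box C/D protein genes, Fbl (the methyltransferase) and Nop56 were lower, by -1.37 and -0.70, and Nop58 (-0.31) and Snu13 (-0.17) did not pass. Of 13 genes for snoRNA assembly and transport, 1 was higher and 5 lower. Other small RNA genes (symbols starting Scarna, Rnu, Rny or Mir) were higher in 73 and lower in 2 of the 139 tested. These are 54.0%, beside 34.8% of all tested genes. Between set 3 and set 1 fewer were called. Nop10 (-0.52) and Nhp2 (-0.48) were lower, and none of the 4 box C/D protein genes and none of the 13 assembly and transport genes was called. Of the other small RNA genes 13 were higher and 3 lower (11.5%), beside 11.4% of all tested genes. Spread within groups and sets was wide as well: the median residual SD was 0.38 log2 over the snoRNAs against 0.20 over all genes tested, and 43 of the 44 exceeded the latter.

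Against this background the group comparisons gave few calls. Between WT DEN and WT untreated no snoRNA was called with limma, while 7 had an unadjusted p under 0.05 and 3.99% of all tested genes were called. Snora31 had the smallest p, with a difference of -0.66 (SE 0.21, adjusted p = 0.0776). Within set 1 alone, where 11% of all tested genes were called, 6 were called and all were lower after DEN. WT untreated has only 2 arrays there. Of the 3 endothelial markers Stab2 was lower after DEN in WT (-0.90) over all arrays. So was 1 of the 4 neuron markers tested, and the part of both was not tested.

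The 6 included both snoRNAs with the largest fall in set 1. Snord14e, a U14 gene, was at 9.03 and 8.73 in WT untreated and 7.54, 7.57 and 7.37 in WT DEN of set 1, a difference of -1.39 (SE 0.21, adjusted p = 0.000369), and in set 2 it was 8.96 without and 9.80 and 9.26 with DEN. Snord118, the U8 gene, was at 6.99 and 6.30 in WT untreated and 5.31, 3.59 and 4.84 in WT DEN of set 1, a difference of -2.06 (SE 0.39, adjusted p = 0.00213), and in set 2 it was 3.15 without and 4.14 and 4.02 with DEN. Both thus had the opposite sign in set 2. The others called in set 1 were Snora31 (-0.70), Snord95 (-0.82), Snord15b (-0.50) and Snord52 (-0.48). In set 2, Snora31 was again lower, at 5.53 without and 5.11 and 4.85 with DEN. The others had the opposite sign there. Snord95 was 3.90 without and 4.38 and 4.28 with DEN. Snord15b was 4.29 without and 4.36 and 4.48 with DEN, and Snord52 was 6.76 without and 8.80 and 8.20 with DEN.

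In DKO mice the snoRNAs lay mostly higher after DEN. Of the 44, 38 had a difference above 0 and the median was 0.29, while the median over all genes tested was 0.00 and, of all genes called, 78.6% were lower. Only 2 were called, both higher, where 21% of all tested genes were called. The medians of the classes were near each other, 0.29 for box C/D and 0.27 for box H/ACA. In set 1 alone 5 were called, all higher, beside 25.3% of all tested genes, and the median was 0.18.

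Snora23 was one of the 2. It measured 4.81, 5.09 and 4.99 in DKO untreated and 5.86, 5.71, 6.16, 8.22 and 7.56 in DKO DEN, the last 2 from set 3. The groups did not overlap, nor did the 3 DEN arrays of set 1 overlap the untreated ones. The difference was 1.22 (SE 0.27, limma adjusted p = 0.00202), and 0.95 (SE 0.22, adjusted p = 0.00364) in set 1. The call held without each array in turn, with adjusted p up to 0.0143. Its host Ipo7 differed by 0.03 (SE 0.15).

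Snord47, the one member of the Gas5 family of snoRNAs with its own probe set, was the other. It was 6.39, 7.23 and 7.15 in DKO untreated and 7.52, 7.84, 8.00, 8.80 and 8.41 in DKO DEN, without overlap. The difference was 1.21 (SE 0.30, limma adjusted p = 0.00476), with 0.86 (SE 0.22, adjusted p = 0.00727) in set 1. Without the first DKO untreated array, the lowest, the adjusted p was 0.0518. Gas5, a non-coding transcript known for its rise in growth arrest, differed by 0.16 (SE 0.11). Snord22 of Snhg1 had 0.72 (SE 0.26, adjusted p = 0.0512) and Snord38a 0.59 (SE 0.23, adjusted p = 0.0654).

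Within set 1, Snord118 (1.36, SE 0.35), Snord52 (0.58, SE 0.13) and Snord38a (0.45, SE 0.15) were also called higher after DEN in DKO. Of other small RNA genes 27 of 139 (19.4%) were higher and none lower in the fit over all arrays, and their median was 0.23. That share is near the 21% of all tested genes called in this comparison. Endothelial markers moved in the same comparison: all 3 listed (Pecam1, Stab2 and Cdh5) were lower in DKO DEN, with a median of -0.99, and their summed level ran from 21.8 to 22.0 log2 in DKO untreated and from 18.3 to 19.3 in DKO DEN. Of the other listed cell types, hepatocyte markers had 1 higher and 2 lower of 6, macrophage markers 1 lower of 3 and neuron markers 1 lower of 4. The erythroid marker Alas2 was lower (-0.63), and none of 3 cholangiocyte markers was called. The part of all these markers in the snoRNA values was not tested.

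**Figure D3:**
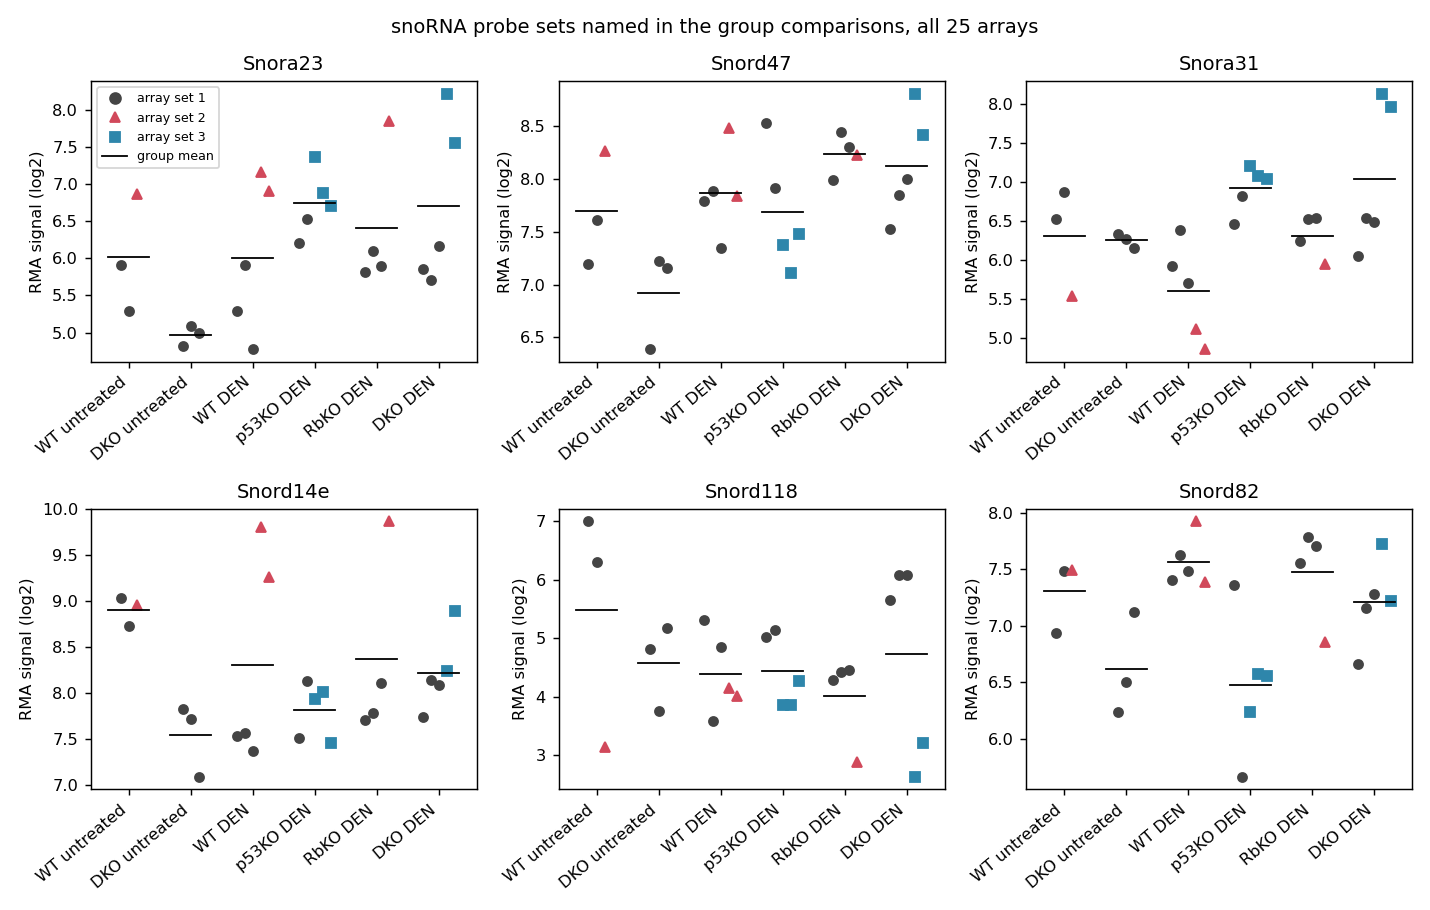
RMA signal (log2, vertical axis) of the 6 snoRNA probe sets named most in the group comparisons, in all 25 arrays by group, with circles for set 1, triangles for set 2, squares for set 3 and a line at each group's mean. Snora23 and Snord47 lie lower in the 3 DKO untreated arrays than in the 5 DKO DEN arrays, and Snord82 lies low in 4 of 5 p53KO DEN arrays.

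The DEN response differed between DKO and WT for 3 snoRNAs, all more positive in DKO, where 9.91% of all tested genes were called. Snora23 had a difference of responses of 1.34 (SE 0.37, limma adjusted p = 0.0220), Snord14e of 1.26 (SE 0.41, adjusted p = 0.0477) and Snora31 of 1.0 (SE 0.30, adjusted p = 0.0346). In set 1 they were 1.22, 1.83 and 0.80, with adjusted p of 0.0281, 0.00154 and 0.0656. Leaving out each of the 16 arrays concerned in turn ended the call of Snord14e for 13 of them, with the highest adjusted p, 0.162, without the first WT untreated array. It ended the call of Snora31 for 6, with 0.0941 without the second WT untreated array as the highest. That of Snora23 ended without the first WT untreated array (0.0761) and without the first DKO untreated array. Without the first DKO untreated array none of the 44 was called. Of the 3 endothelial markers Pecam1 (-0.87, SE 0.21) and Cdh5 (-1.03, SE 0.27) were lower in the same difference of responses, Stab2 had -0.36, and their part in the snoRNA values was not tested.

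The signs behind these values differ by gene. For Snora23 the WT response was -0.12 and the DKO response 1.22, and for Snora31 they were -0.66 and 0.35. Snora31 measured 6.53, 6.87 and 5.53 in WT untreated, 5.92, 6.38, 5.70, 5.11 and 4.85 in WT DEN, 6.33, 6.27 and 6.16 in DKO untreated, and 6.04, 6.54, 6.49, 8.13 and 7.96 in DKO DEN. The last 2, from set 3, were the highest, and the set 2 arrays of both WT groups were the lowest of their groups. Their hosts Ipo7, Hspa8 and Tpt1 had differences of responses of 0.24, -0.03 and 0.22, none called. In set 1 alone 5 snoRNAs were called, all more positive in DKO, where 7.35% of all tested genes were called, the largest being Snord118 with 3.42 (SE 0.52, adjusted p = 0.00140). Over all arrays Snord118 had 1.97 (SE 0.66, adjusted p = 0.0564).

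Without DEN, no snoRNA was called between DKO and WT with limma, although 10 had an unadjusted p under 0.05, and 1.11% of all tested genes were called. Of the 44, 37 had a difference below 0 and the median was -0.31, beside 0.01 over all genes tested. Box C/D had a median of -0.35 and box H/ACA of -0.17. The members with the smallest p were Snora73a at -1.05 (SE 0.36, adjusted p = 0.174), Snord118 at -1.42 (SE 0.52, adjusted p = 0.223) and Snord14e at -0.85 (SE 0.32, adjusted p = 0.239), followed by Snord15b at -0.46.

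All 3 DKO untreated arrays belong to set 1, and 2 of the 3 WT untreated arrays. Within set 1, where 5.59% of all tested genes were called, 7 were called and all were lower in DKO. Snord118 was at 4.81, 3.76 and 5.17 in DKO untreated against 6.99 and 6.30 in WT untreated, which gives -2.06 (SE 0.39, adjusted p = 0.00354). Snord14e was at 7.83, 7.71 and 7.09 against 9.03 and 8.73, or -1.33 (SE 0.21, adjusted p = 0.00102). Snora73a and Snora73b were at -1.20 and -1.05, each with an adjusted p just under the threshold (0.0483 and 0.0495), and Snord52 (-0.68), Snord49a (-0.63) and Snord15b (-0.63) made up the rest. The same untreated arrays enter the DEN comparisons in WT and DKO and the difference of responses above, so these are not independent of one another.

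**Figure D4:**
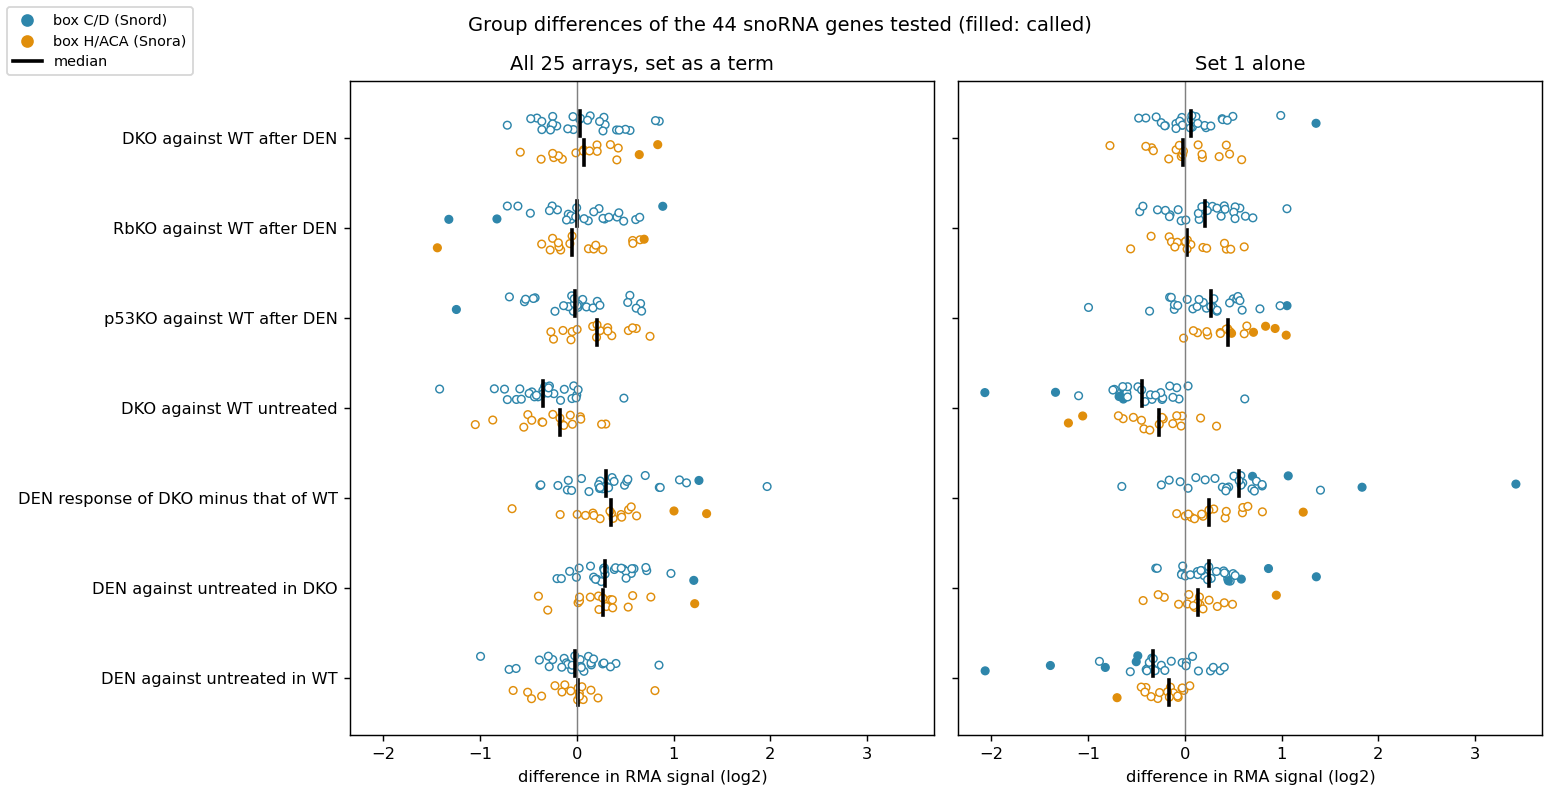
Difference in RMA signal (log2, horizontal axis) of the 44 tested snoRNAs in 7 group comparisons, with the fit over all 25 arrays on the left and set 1 alone on the right, box C/D in blue, box H/ACA in orange, filled points for called genes and bars for class medians. The points lie mostly above 0 for DEN in DKO (38 of 44) and mostly below 0 for DKO against WT untreated (37 of 44), with few called in either.

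After DEN, 1 snoRNA was called between p53KO and WT, where 1.78% of all tested genes were called. Snord82, one of the snoRNAs inside Ncl, was lower by -1.24 (SE 0.30, limma adjusted p = 0.0314). It measured 7.41, 7.63, 7.49, 7.92 and 7.39 in WT DEN and 7.36, 5.67, 6.24, 6.57 and 6.56 in p53KO DEN. All p53KO arrays were lower, though the first was barely below the lowest WT array. In set 1 alone, with 2 p53KO arrays, the difference was -0.99 (adjusted p = 0.0951), and the adjusted p was 0.229 without the second p53KO array and 0.0565 without the second WT DEN array.

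Ncl itself differed by -0.07 (SE 0.13), and its other snoRNA here, Snora75, by 0.00 (SE 0.25). Within set 1, where 5.91% of all tested genes were called, 6 were called and all were higher in p53KO: Snord22 (1.06, SE 0.23), Snora23 (1.05, SE 0.24), Snora33 (0.93), Snora69 (0.84), Snora7a (0.71) and Snora74a (0.48). Of these 6, 5 are of box H/ACA. None of them was called in the fit over all arrays, where their adjusted p lay between 0.133 and 0.603. Box H/ACA had a median of 0.44 in set 1 and 0.21 over all arrays, and box C/D of 0.27 and -0.02.

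Between RbKO and WT after DEN 5 were called, where 11.4% of all tested genes were called. Snord61 (0.89, SE 0.28, limma adjusted p = 0.0406) and Snora33 of Rps12 (0.70, SE 0.23, adjusted p = 0.0498) were higher. Snord61 was at 2.40, 3.08 and 2.74 in WT DEN of set 1, under the filter limit of 3.33, and at 3.27, 3.99 and 4.13 in RbKO DEN. Leaving out each of the 9 arrays in turn ended the call of Snord61 for 6 and that of Snora33 for 7. Snora44 (-1.44, SE 0.34, adjusted p = 0.00896), Snord33 (-1.32, SE 0.32, adjusted p = 0.0108) and Snord104 (-0.82, SE 0.25, adjusted p = 0.0320) were lower. In set 1 alone none was called and 3.34% of all tested genes were. Without the fourth RbKO DEN array, the only one in set 2, none of the 44 was called.

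The 3 that were lower differed mostly in set 2. Snord33 was at 4.10, 4.06 and 3.62 in the RbKO DEN arrays of set 1 and at 3.96, 4.71 and 4.40 in the WT DEN arrays of set 1, which overlap, while set 2 held 6.03 for RbKO and 9.42 and 9.04 for WT. Snord104 was at 10.61, 10.53 and 10.62 against 10.75, 10.79 and 10.67 in set 1, and at 6.02 against 8.26 and 8.15 in set 2. For Snora44 the set 1 values were 4.58, 4.73 and 4.15 against 5.66, 4.67 and 4.80, and the set 2 values 4.78 against 8.22 and 7.85. The differences within set 1 were -0.43, -0.15 and -0.56.

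Between DKO and WT after DEN 2 were called, both of box H/ACA and both higher, where 11.8% of all tested genes were called. Snora23 differed by 0.84 (SE 0.26, limma adjusted p = 0.0319) and Snora31 by 0.65 (SE 0.21, adjusted p = 0.0416). Within set 1 they were at 0.59 (adjusted p = 0.0916) and 0.36 (adjusted p = 0.203), and there Snord118 was called, at 1.36 (SE 0.35, adjusted p = 0.0180), where 10.9% of all tested genes were called. Snord118 was at 5.66, 6.08 and 6.08 in DKO DEN of set 1 and at 2.63 and 3.21 in set 3. Leaving out each of the 10 arrays in turn ended the call of Snora31 for 7 and that of Snora23 for 3, with adjusted p of 0.104 and 0.113 without the third WT DEN array as the highest. The 3 endothelial markers were lower here too, with a median of -0.72 and a summed level of 20.3 to 21.8 log2 in WT DEN. The erythroid marker Alas2 was also lower (-0.63). The part of these markers in the snoRNA values was not tested.

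Among the protein partners, Fbl went the other way from the snoRNA medians in DKO. It fell by 0.93 after DEN in DKO (SE 0.15, limma adjusted p = 8.01e-05) and was lower after DEN in DKO than in WT (-0.78, SE 0.14, adjusted p = 0.000948) and in RbKO than in WT (-0.71, SE 0.13, adjusted p = 0.00207). Nop56 (-0.61, SE 0.20) and Nhp2 (-0.64, SE 0.16) were also lower in DKO than in WT after DEN. Nhp2 rose after DEN in WT (0.67, SE 0.17, adjusted p = 0.0199), and its response was lower in DKO than in WT (-0.90, SE 0.24, adjusted p = 0.0175), as was that of Fbl (-1.37, SE 0.21, adjusted p = 0.000328). Dkc1, Nop10, Gar1, Nop58 and Snu13 passed in none of the 7 group comparisons over all arrays. Of the non-coding host genes in a list of 26, 8 were tested and only Snhg5 was called, higher in RbKO than in WT after DEN (0.48, SE 0.16, adjusted p = 0.0484).

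Host genes could be set beside 23 of the tested snoRNAs, over 20 distinct hosts. In none of the 7 group comparisons did a called snoRNA have a called host. At most 3 of the 23 snoRNAs and at most 3 of the 20 hosts were called in any comparison. A joint call thus had little room to occur, and its absence does not speak on whether the 2 go together. The median size of the difference of the 23 snoRNAs exceeded that of their hosts in 6 of the 7 comparisons. Examples were 0.36 against 0.07 between DKO and WT untreated and 0.27 against 0.08 between DKO and WT after DEN. Such a size also grows with spread, and the median residual SD was 0.38 over the 44 snoRNAs and 0.20 over all genes tested. The part of spread in this was not tested. For DEN in WT the median size was below that of the hosts (0.15 against 0.21). There Rps3 rose by 0.64 (SE 0.13, limma adjusted p = 0.00337), while its snoRNAs Snord15a and Snord15b had 0.12 and -0.28.

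Between set 2 and set 1, 13 of the 23 were called and 7 of these had a called host. Of the 20 distinct hosts 11 were called there, so called snoRNAs had called hosts about as often as hosts were called. The sign was the same for 2 of the 7, Snora23 with Ipo7 (0.39) and Snora33 with Rps12 (-1.16). Snord57 was higher by 1.16 where Nop56 was lower by -0.70, and Snora52 was higher by 1.27 where Rplp2 was lower by -0.54. Between set 3 and set 1, 9 of the 23 were called and 1 had a called host, Snora30 (0.89) with Srcap (0.60). Hosts were assigned by the snoRNA gene, and whether the probe set used lies in the host was not checked. For Snora30 there are 2 probe sets with identical values. Of the 20 hosts only 1 was called there. A snoRNA shares its host's array but not its probes, and how far unspliced host RNA enters the snoRNA signal was not tested.

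**Figure D5:**
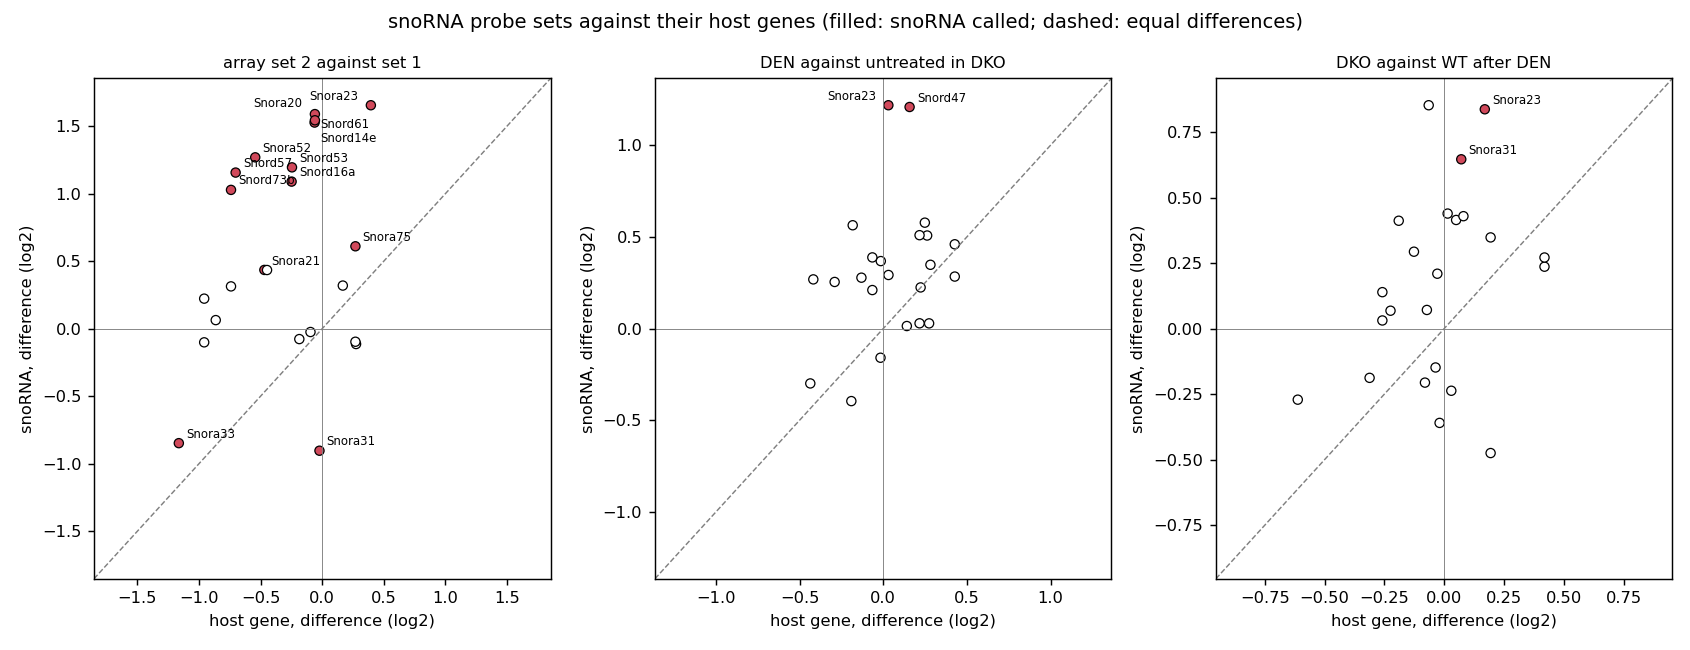
Difference in RMA signal (log2) of 23 snoRNA probe sets (vertical axis) against that of their host genes (horizontal axis) for set 2 against set 1, DEN in DKO and DKO against WT after DEN, with filled, named points for called snoRNAs and a dashed line of equal differences. In set 2 most called snoRNAs lie above 0 while their hosts lie near or below 0, and Snora23 and Snord47 lie at 1.22 and 1.21 for DEN in DKO with hosts at 0.03 and 0.16.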

How the data were processed

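RNA of 25 mouse liver samples was hybridised to 1-colour whole-transcript arrays. The deposited values are log2 signals that the authors made with RMA in Affymetrix Expression Console 1.1, per the submitters' processing notes. The genome build and whether all arrays were normalized together are not given in the sources used here. Of 35555 probe sets, 21789 had 1 gene symbol. The probe set with the highest mean stood for a gene, and genes under the 20th percentile of the means were left out, which left 15951. RNA depth is unknown for arrays, and the number of arrays limits the precision.

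Group means and the 3 array sets were fitted with limma 3.58.1 (lmFit and eBayes, R 4.3.3) over all 25 arrays, tested two-sided with Benjamini-Hochberg adjustment over all 15951 genes in each of 9 comparisons. The script was tested on simulated data. The host was the shortest gene that contains the snoRNA in the RefSeq table (GRCm38.p6). The plan asked for the same strand, but that table gives none, and 3 snoRNAs lie in several genes. Of 41 probe sets that name a snoRNA with several symbols, 24 of them Snord116, none was used, and 18 snoRNA symbols occur only there, so the imprinted clusters are not described. The 2 probe sets of Snora30 hold identical values, as do those of Snord118.

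Members, lists and rules were chosen with earlier results of these data known. Named in each comparison were up to 6 rises and 6 falls among called snoRNAs with the same sign in set 1, or the 4 with the smallest p where under 3 were called, with hosts and fixed families. The snoRNAs with the highest signals were not ranked, since levels of different probe sets are not comparable. The snoRNAs called only in set 1, and Snord35a, were named after their values were seen. Alternatives were other set terms, array choices, filters, normalizations, probe set rules, weights and moderation.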

Additional observations from a re-analysis of the deposited data

Results flagged for a closer look

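In groups of 4 or 5 arrays, 108 groups of values from 27 snoRNAs were examined for an array far from the rest by a gap test that chance passes about 1 time in 20, and 7 values on 4 arrays were found. The fourth RbKO DEN array, the only one of its group in set 2, gave 4 of them. Snora23 was 7.85 log2 there against 5.82 to 6.09 in the others, Snord52 was 5.84 against 3.11 to 3.21, Snord104 was 6.02 against 10.53 to 10.62, and Snord118 was 2.88 against 4.28 to 4.45. The second RbKO DEN array had Snord15b at 4.00 against 4.47 to 4.51. The fourth DKO DEN array, from set 3, had Snord52 at 4.13 against 3.25 to 3.49. The first p53KO DEN array had Snord87 at 5.76 against 6.28 to 6.44.

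By the interaction term of the limma fit, the response to DEN differed between DKO and WT in 3 of the 44 tested snoRNAs. That is 6.82%, where 9.91% of all tested genes were called. The difference was 1.34 for Snora23, 1.26 for Snord14e and 1.0 for Snora31, all more positive in DKO. Leaving out each of the 16 arrays in turn ended the call of Snora23 for 2, of Snord14e for 13 and of Snora31 for 6.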

How the results depend on the processing

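No value named by the rule for each comparison changed sign as a called value under any alternative run. Values named outside that rule, among them those of Snord52 within set 1, were not followed in these runs. Over all alternatives that leave out 1 array, 718 values of named snoRNAs kept their side of the threshold, 59 lost the call and 9 gained one, and over the others 373 kept it, 67 lost it and 37 gained it. Counts of called snoRNAs moved more, and the cause was not tested. Leaving out 1 array gave 0 to 3 for DEN in WT, 1 to 5 for DEN in DKO, 0 to 5 for the difference of responses, 0 to 2 for DKO against WT untreated, 0 to 1 for p53KO, 0 to 8 for RbKO and 0 to 3 for DKO against WT after DEN. The first DKO untreated array gave the lowest count for DEN in DKO and for the difference of responses. Between set 2 and set 1 the count stayed within 19 to 26 and between set 3 and set 1 within 9 to 15.

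Without a set term the counts were 4 for DEN in DKO, 0 for the difference of responses, 7 for p53KO, 0 for RbKO and 4 for DKO against WT after DEN. With the set as a random block they were 4, 0, 2 and 1 for the first 4 of these. In set 1 alone they were 6 for DEN in WT, 5 for DEN in DKO, 5 for the difference of responses, 7 for DKO against WT untreated, 6 for p53KO, 0 for RbKO and 1 for DKO against WT after DEN. Without set 2 they were 2 for DEN in WT, 4 for DKO against WT untreated, and 0 for p53KO, RbKO and DKO against WT after DEN. With only the groups compared in the fit they were 4 for DEN in DKO, 0 for the difference of responses, 13 for DKO against WT untreated, 0 for p53KO and 2 for RbKO. With array weights they were 4 for DEN in WT, 7 for DEN in DKO, 5 for the difference of responses, 9 for DKO against WT untreated, 0 for p53KO, 2 for RbKO and 0 for DKO against WT after DEN. No filter gave 1 for DEN in WT, centring each array on its median gave 1 for DKO against WT after DEN, and moderation with trend and robust gave 3 for RbKO. Centring moved the median of all genes in the difference of responses from -0.03 to -0.15. With only non-coding hosts, 0 called snoRNAs had a called host between set 2 and set 1. Only 1 of the 23 snoRNAs with a host had a non-coding one, Snord47 in Gas5. It was not called there, so this 0 says nothing on non-coding hosts. WT untreated and p53KO have 2 arrays each in set 1, which limits those values. The share of all tested genes called also moves between such runs and is not given beside the counts of this section. For DKO against WT untreated it was 1.11% over all arrays and 5.59% in set 1 alone. These counts therefore do not show whether snoRNAs moved apart from other genes.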
